A study of Mus musculus with 15 samples.

Results

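The mitochondrial ribosomal protein genes are the genes whose platform symbol begins with Mrpl or Mrps followed by a number. There were 74 of them among the 12393 genes with a probe set of their own on the array, 47 with an Mrpl and 27 with an Mrps symbol, and the brightest probe set of each, averaged over the 15 arrays, stands for the gene. The cells were neural stem cells from the subventricular zone of female C57Bl6/J mice aged 6 months, expanded as neurospheres and used at passages 5 to 7. Their total RNA was hybridised to an Affymetrix mouse array, 1 array per sample. The undifferentiated group (5 arrays) was kept with the growth factors bFGF and EGF. The 12 h and 24 h groups (5 arrays each) were harvested 12 and 24 h after the start of differentiation, without growth factors, in 5% serum and on poly-D-lysine. Growth factor removal, serum and substrate came together in both groups and cannot be told apart. Whether the 5 arrays of a group come from separate cultures or animals is not stated, so p-values measure array-to-array spread, which may be technical. In these bulk samples fewer cells of a type and less RNA per cell cannot be told apart.

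Mitochondria carry their own ribosome, which translates the few proteins that the mitochondrial genome encodes, all of them subunits of the respiratory chain and the ATP synthase. Its RNAs come from the mitochondrial genome, whereas all its proteins are encoded in the nucleus, made in the cytosol and imported. Some of the proteins have counterparts in the bacterial ribosome, and others are found only in mitochondrial ribosomes. In humans, defects in several of them cause inherited mitochondrial disease.

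Values are log2 of the deposited signal, and a negative difference means a lower signal after differentiation. Probe sets differ in how brightly they bind, so levels are compared between arrays within a gene, except in a correlation across genes marked below. All 74 genes passed the filter on low values, as did 7909 genes in all. The code in the title differed from the code of the named array file for 13 of the 15 samples, and 8 arrays would change group by the file code. The title groups are used here. With groups taken from the file code, 0 members passed the test in any comparison, and the median member difference was 0.0021 at 12 h and -0.07 at 24 h. 12 h replicates 3 and 4 were the closest arrays of the table, with an SD of 0.15 between them over all tested genes, so results are also given without them. The 15 title codes end in 3 suffixes, called A, B and C here, and arrays of 1 suffix deviated together (median correlation of 0.33 across genes, over 25 pairs of different groups, against -0.16 over 50 pairs of other suffixes).

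After 24 h, 34 of the 74 genes had fallen and 0 had risen (limma, adjusted p under 0.05 over all 7909 genes), which is 45.9% of them; of all genes tested 19.4% were lower and 12.7% higher. The differences of the 34 ran from -1.29 for Mrps18b to -0.31 for Mrpl16. The median over all 74 genes was -0.42, against -0.06 over all genes tested, and 68 of the 74 lay below 0, as did 55.1% of all genes. After 12 h, 7 genes had fallen and 0 had risen, or 9.46%, where 4.56% of all genes tested were lower and 3.3% higher. The median was -0.34 against 0.0045 over all genes, and 71 of the 74 lay below 0, against 49.6% of all genes. At an unadjusted p under 0.05, 38 members were lower at 12 h and 45 at 24 h, beside 13.9% and 25.3% of all genes. Arrays of 12 h lay below the undifferentiated ones without overlap for 11 members (4.74% of all genes), and those of 24 h for 23 (16% of all genes). The 12 h and the 24 h comparisons share the undifferentiated arrays. The list's numbers are a description, since the genes were chosen with results of these arrays known.

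The counts moved with the processing at both times. After quantile normalisation 10 members were lower at 12 h and 29 at 24 h, and 0 were higher, where 6.13% and 16.5% of all genes were lower and 5.73% and 20.1% higher. Quantile normalisation moved the median of all genes at 24 h to 0.05, and centring each array on its median moved it to 0.09. After centring, 8 members were lower at 12 h and 19 at 24 h, beside 467 and 1110 lower genes in all. Relative to the median of all genes at 24 h the members stood at -0.36 as deposited and -0.35 after quantile normalisation. Centring shifts all genes of an array alike, so it cannot change this value. Below 0 at 24 h lay 68 members as deposited, 60 after quantile normalisation and 57 after centring. Of all genes called at 24 h, 39.6% were higher as deposited, 54.9% after quantile normalisation and 56.3% after centring. With the code suffix as a block, 22 members were lower at 12 h and 41 at 24 h, beside 10.7% and 23.7% of all genes, and 7.99% and 18.1% of all genes were higher. Within suffix A, B and C the median member difference was -0.50, -0.02 and -0.57 at 12 h, and -0.51, -0.38 and -0.46 at 24 h. Suffix A held 2 undifferentiated arrays, 2 of 12 h and 1 of 24 h. Suffix B held 2 of each group, and its 12 h arrays were replicates 3 and 4. Suffix C held 1 undifferentiated array, 1 of 12 h and 2 of 24 h, so its 12 h value compares single arrays. Without 12 h replicates 3 and 4, 27 members were lower at 12 h and 38 at 24 h, beside 1168 and 1673 lower genes in all.

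**Figure D1:**
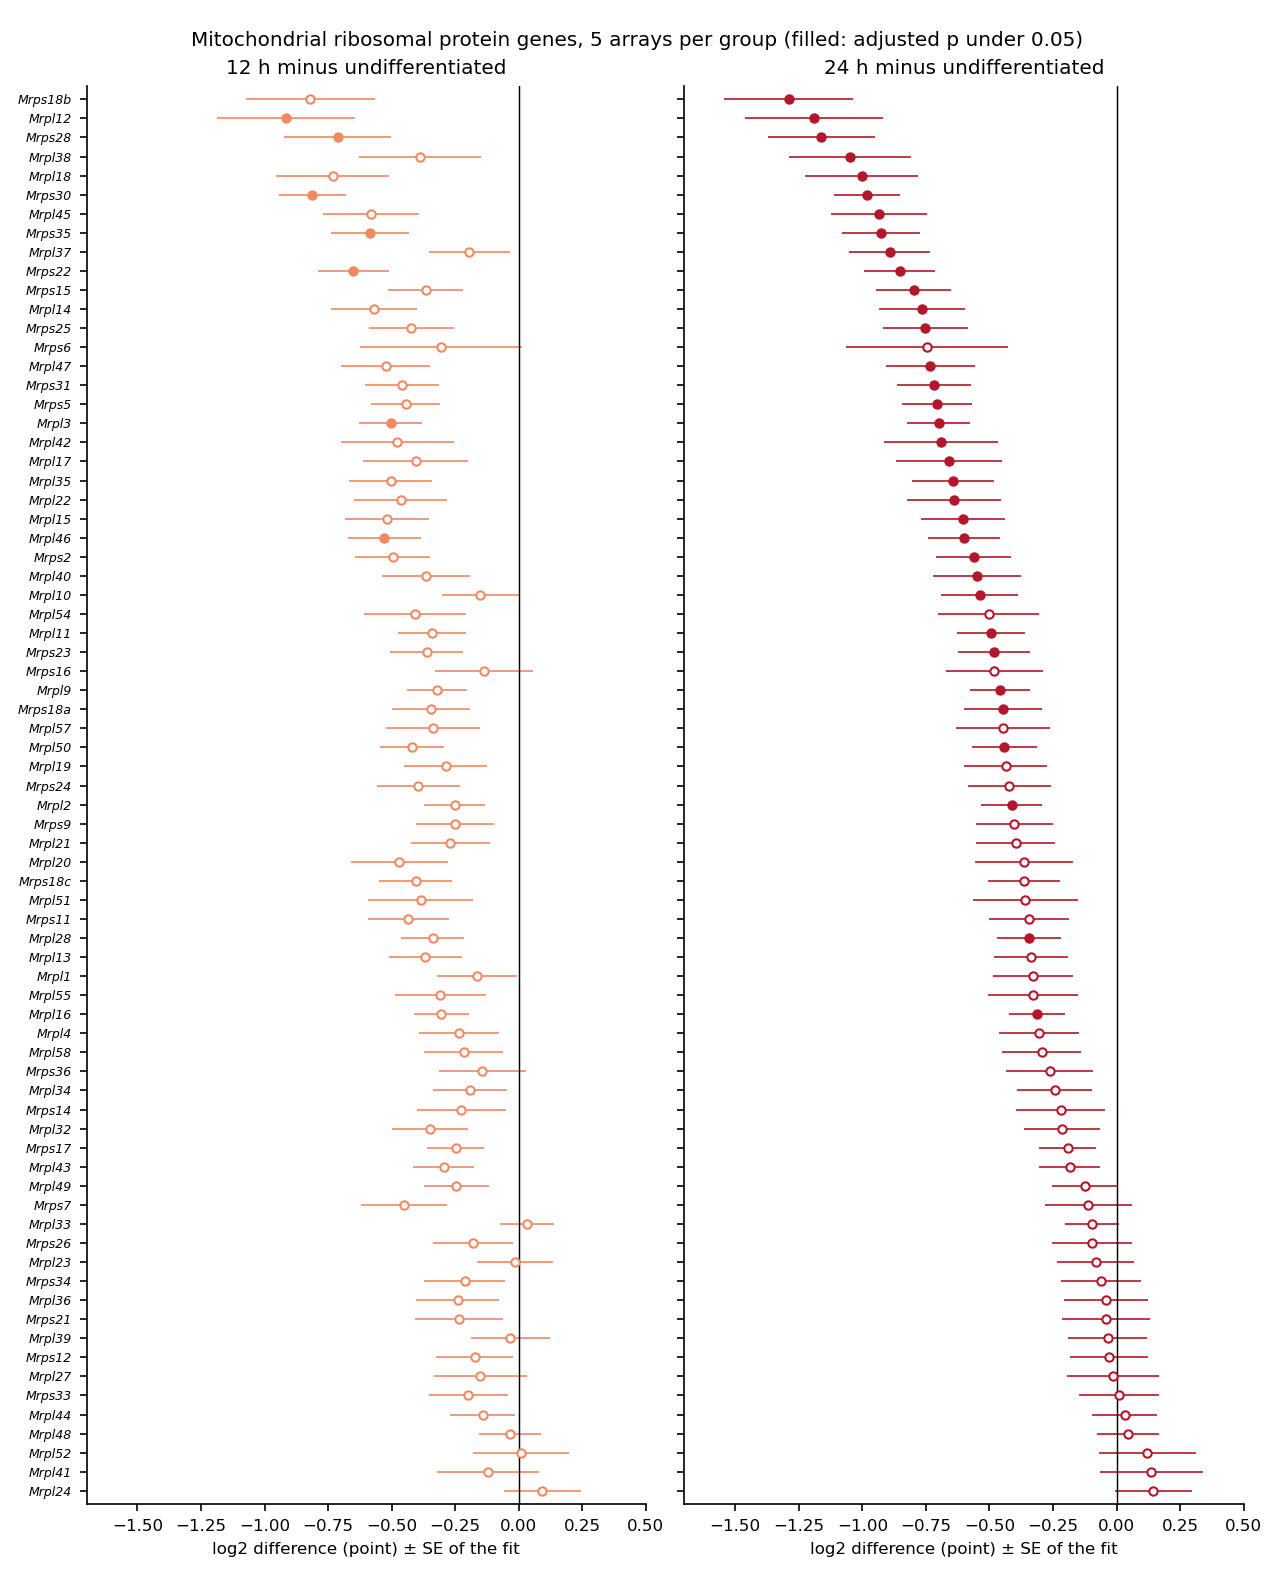
Log2 difference from undifferentiated cells (horizontal axis, point, with the SE of the fit as a bar) for each of the 74 genes (vertical axis, sorted by the 24 h difference), at 12 h in the left panel and 24 h in the right one; filled points have an adjusted p under 0.05. At 24 h 68 points lie below 0 and 34 are filled, and at 12 h 71 lie below 0 and 7 are filled.

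The 7 genes lower at both times were Mrps30, Mrps22, Mrps35, Mrpl3, Mrpl12, Mrps28 and Mrpl46. Mrps30, which sits in the large subunit of the mammalian mitochondrial ribosome in spite of its symbol, read 4.26, 4.16, 4.09, 4.12 and 4.32 in undifferentiated arrays, 3.28, 3.30, 3.61, 3.68 and 3.03 at 12 h, and 3.37, 3.18, 3.24, 3.21 and 3.04 at 24 h. Every array at 12 h and 24 h lay below every undifferentiated array. The level fell by 0.81 ± 0.13 (SE, n = 5 arrays per group) at 12 h (adjusted p = 0.00408) and by 0.98 ± 0.13 at 24 h (adjusted p = 0.000184), to 50.6% of the undifferentiated level. Mrps22, a small subunit protein found only in mitochondria and a human disease gene, read 5.90, 5.56, 5.43, 5.73 and 5.90 in undifferentiated arrays, 4.86, 4.99, 5.28, 5.34 and 4.78 at 12 h, and 4.90, 4.63, 4.86, 5.05 and 4.81 at 24 h. Here too no differentiated array reached the undifferentiated ones. The fall was 0.65 ± 0.14 at 12 h (adjusted p = 0.0142) and 0.85 ± 0.14 at 24 h (adjusted p = 0.000581). These 2 genes also passed at 12 h in each of the 15 fits that left out a single array, and only these 2 did when the 12 h and undifferentiated arrays were fitted alone.

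Mrps35, another small subunit protein without a bacterial counterpart, read 4.49, 4.15, 4.02, 4.23 and 4.44 in undifferentiated arrays, 3.51, 3.70, 3.97, 3.97 and 3.24 at 12 h, and 3.53, 3.31, 3.35, 3.39 and 3.11 at 24 h. Both groups lay below the undifferentiated arrays without overlap, with 12 h replicates 3 and 4 closest to them. Mrps35 fell by 0.59 ± 0.15 at 12 h (adjusted p = 0.0305) and by 0.93 ± 0.15 at 24 h (adjusted p = 0.000621). Mrpl3, a counterpart of bacterial L3 near the peptidyl transferase centre, read 5.66, 5.52, 5.46, 5.44 and 5.54 in undifferentiated arrays, 4.83, 5.00, 5.31, 5.29 and 4.67 at 12 h, and 4.88, 4.79, 4.80, 4.84 and 4.81 at 24 h. The 24 h arrays lay within a narrow band (SD 0.04), well below the undifferentiated band (SD 0.09). Its difference was -0.50 ± 0.12 at 12 h (adjusted p = 0.0245) and -0.70 ± 0.12 at 24 h (adjusted p = 0.000919).

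Mrpl12 is the mitochondrial form of the L7/L12 stalk protein, through which translation factors are recruited, and in human cells it also binds the mitochondrial RNA polymerase. It read 6.31, 5.82, 5.80, 6.13 and 6.54 in undifferentiated arrays, 4.25, 4.88, 5.88, 5.93 and 5.09 at 12 h, and 4.59, 4.85, 4.86, 5.35 and 4.99 at 24 h. At 12 h the replicates 3 and 4 stayed within the undifferentiated range while the other arrays of that group lay below it. Mrpl12 fell by 1.19 ± 0.27 at 24 h (adjusted p = 0.00424), to 43.8% of the undifferentiated level, and by 0.92 ± 0.27 at 12 h (adjusted p = 0.0493). The 12 h value was -1.38 without replicates 3 and 4 (adjusted p = 0.000911) and 0.03 with groups by the file code. Mrps28, a small subunit protein, read 5.71, 4.97, 5.18, 5.31 and 5.27 in undifferentiated arrays, 4.02, 4.58, 5.10, 5.07 and 4.11 at 12 h, and 4.16, 4.04, 4.10, 4.44 and 3.90 at 24 h. The 24 h arrays all lay below the undifferentiated ones, whereas 12 h replicates 3 and 4 overlapped with them. The fall was 0.71 ± 0.21 at 12 h (adjusted p = 0.0473) and 1.16 ± 0.21 at 24 h (adjusted p = 0.00100).

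Mrpl46, a large subunit protein of mitochondria only, read 4.79, 4.16, 4.28, 4.60 and 4.65 in undifferentiated arrays, 3.71, 3.98, 4.09, 4.22 and 3.84 at 12 h, and 3.79, 3.84, 3.84, 4.16 and 3.86 at 24 h. Replicate 4 of the 12 h group and replicate 4 of the 24 h group reached the lowest undifferentiated array, and all others lay below it. It fell by 0.53 ± 0.14 at 12 h (adjusted p = 0.0346) and by 0.60 ± 0.14 at 24 h (adjusted p = 0.00533), and after quantile normalisation the 12 h value no longer passed (adjusted p = 0.0596). With each array centred it passed at neither time (adjusted p = 0.0816 at 12 h and 0.0653 at 24 h). Leaving out a single array left between 2 and 16 members lower at 12 h, and the count over all genes moved with it. Of the 15 fits that each left out 1 array, Mrpl12 and Mrps28 passed at 12 h in 2 each, Mrps35 in 8, Mrpl46 in 9 and Mrpl3 in 11; at 24 h all 7 genes passed in each. Single arrays whose absence took the count to 4 or fewer were undifferentiated replicates 1, 2, 4 and 5 (3, 3, 3 and 2 members) and 12 h replicates 1, 2 and 5 (4, 2 and 2 members). Lower genes in all numbered 361 with every array, 131 without undifferentiated replicate 5, and 105 and 103 without 12 h replicates 2 and 5. Without 12 h replicate 3 or 4 there were 16 or 13 members, beside 649 or 538 lower genes in all.

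**Figure D2:**
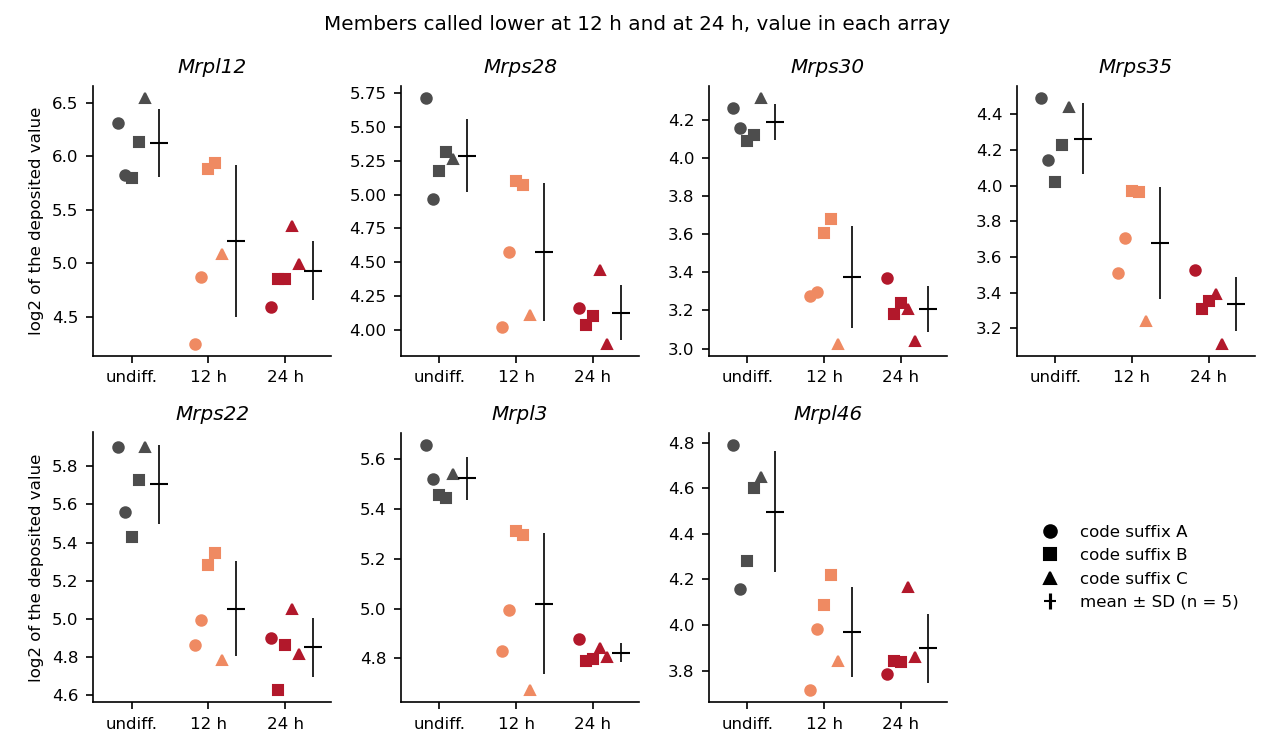
Log2 of the deposited value (vertical axis) of the 7 genes lower at both times, in each of the 15 arrays, by group (horizontal axis); symbols show the code suffix, and the bar beside each group is the mean ± SD (n = 5). The pair of squares at 12 h, replicates 3 and 4, is above the other 12 h arrays in each panel.

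The DNA just before the start is shown for 4 of these genes and for 3 genes at or above 0 at 24 h. Promoters of mitochondrial genes are known to carry sites for the factors NRF1, GABP (an ETS factor) and YY1. Lying below 0 at both times was not particular to the 4, since 67 of the 74 members did so. Control of the genes through such sites was not tested. RefSeq windows of assembly GRCm38.p6, from 250 bases before to 50 after the start, matched 65 of the 74 genes. Mrpl4, Mrpl13, Mrpl15, Mrpl19, Mrpl38, Mrpl54, Mrps28, Mrps34 and Mrps35 had none in the table used. The motifs searched on both strands were GCATGCGC (NRF1), CCGGAAG (ETS), AAGATGGC (YY1) and CACGTG (the E-box). The 150 bases before the start follow, 5′ to 3′ on the strand of the gene, with matches in capitals.
Mrpl3: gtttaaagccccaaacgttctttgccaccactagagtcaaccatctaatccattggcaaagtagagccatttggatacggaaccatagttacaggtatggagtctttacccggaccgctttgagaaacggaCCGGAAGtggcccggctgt
Mrps22: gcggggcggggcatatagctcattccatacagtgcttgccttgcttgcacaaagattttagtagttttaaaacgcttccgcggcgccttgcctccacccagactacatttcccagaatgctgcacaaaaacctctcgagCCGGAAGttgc
Mrpl12: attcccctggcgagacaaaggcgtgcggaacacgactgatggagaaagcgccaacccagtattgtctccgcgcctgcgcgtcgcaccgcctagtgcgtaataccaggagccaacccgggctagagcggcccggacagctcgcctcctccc
Mrps30: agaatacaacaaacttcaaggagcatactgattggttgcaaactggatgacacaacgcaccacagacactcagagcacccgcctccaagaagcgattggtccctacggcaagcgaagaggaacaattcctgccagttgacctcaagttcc
Mrpl52: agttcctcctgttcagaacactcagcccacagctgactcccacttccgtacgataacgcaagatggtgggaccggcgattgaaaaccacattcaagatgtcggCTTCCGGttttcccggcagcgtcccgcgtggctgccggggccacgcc
Mrpl41: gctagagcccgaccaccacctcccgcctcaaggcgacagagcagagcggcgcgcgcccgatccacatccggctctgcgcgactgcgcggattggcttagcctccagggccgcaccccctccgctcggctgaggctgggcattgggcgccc
Mrps33: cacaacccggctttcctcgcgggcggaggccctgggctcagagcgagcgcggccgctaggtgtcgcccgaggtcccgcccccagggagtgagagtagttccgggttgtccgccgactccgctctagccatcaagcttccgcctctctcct

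The stretches lie at chr9:105053118-105053267 (plus strand), chr9:98601680-98601829 (minus), chr11:120484487-120484636 (plus), chr13:118387253-118387402 (minus), chr14:54426759-54426908 (plus), chr2:24975099-24975248 (minus) and chr6:39810937-39811086 (minus), and no gene of the RefSeq table reaches into them. Mrpl3 and Mrps22, lower at both times, held an ETS match at -19 to -13 and -11 to -5 from the start, on the strand of the gene. Mrpl12 and Mrps30, also lower at both times, held none of the 4 motifs in these bases. Of the genes at or above 0 at 24 h, Mrpl41 and Mrps33 held none in these bases, and Mrps33 held an ETS match at 39 to 45 after the start, on the opposite strand. Mrpl52 held an ETS match at -47 to -41 on the opposite strand, printed as its reverse complement, and another at 3 to 9 after the start, also on the opposite strand. Its brightest probe set stood at 0.12 at 24 h, but 2 others above the filter stood at -0.74 and -0.75.

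Over the whole windows, the ETS motif was found for 24 of 65 members (36.9%), against 12.9% of 17492 protein-coding genes and 9.93% of all 27025 genes with a window. NRF1 matches were found for 8 members (12.3%, against 3.94% of protein-coding and 3.05% of all genes) and YY1 matches for 11 (16.9%, against 3.57% and 3.19%). The E-box was found for 5 (7.69%, against 8.91% and 8.09%). The shares among lower and other members are given without a test. Of the 30 members with a window that were lower at 24 h, 8 held the ETS motif (26.7%), and of the 35 others 16 did (45.7%). The median 24 h difference was -0.36 for the 24 members with the ETS motif and -0.42 for the 41 without it. For NRF1 it was -0.50 over 8 members with and -0.40 over 57 members without a match. For YY1 it was -0.34 over 11 with and -0.41 over 54 without, and for the E-box -0.36 over 5 and -0.41 over 60. NRF1 was held by 16.7% of the lower and 8.57% of the other members, YY1 by 13.3% and 20%, and the E-box by 6.67% and 8.57%. A match is only these letters in the window, and binding was not measured.

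One pair of members shares a promoter region. Mrpl46 and Mrps11 start 42 bases apart on opposite strands of chromosome 7, and their windows overlap by 141 bases. Mrps11, a counterpart of bacterial S11, is named here after its values were seen. It differed by -0.34 ± 0.16 at 24 h (adjusted p = 0.109) and by -0.44 ± 0.16 at 12 h (adjusted p = 0.0972), beside -0.60 ± 0.14 and -0.53 ± 0.14 for Mrpl46, which passed at both times as deposited but at neither after centring.

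Among the 28 large subunit genes with a counterpart in bacteria, 15 were lower at 24 h (median -0.41) and 2 at 12 h (median -0.33). These shares are 53.6% and 7.14%, beside 19.4% and 4.56% of all genes. Beside Mrpl12, the ribosomal stalk is formed with Mrpl10 and Mrpl11. Mrpl10, the counterpart of L10, read 4.54, 4.20, 4.23, 4.49 and 4.41 in undifferentiated arrays, 3.96, 4.09, 4.49, 4.60 and 3.98 at 12 h, and 3.80, 4.03, 4.08, 3.63 and 3.64 at 24 h. The 24 h arrays lay below all undifferentiated ones, while 12 h replicates 3 and 4 were near the top of the undifferentiated range. It fell by 0.54 ± 0.15 at 24 h (adjusted p = 0.0129) and differed by -0.15 ± 0.15 at 12 h (adjusted p = 0.563). Mrpl11, the counterpart of L11, fell by 0.49 ± 0.13 at 24 h (adjusted p = 0.0105), with groups that overlapped at 24 h replicate 4.

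Mrpl18, whose bacterial counterpart binds 5S rRNA, read 5.86, 5.41, 5.04, 5.12 and 5.88 in undifferentiated arrays, 4.23, 4.53, 5.23, 4.79 and 4.85 at 12 h, and 4.46, 4.36, 4.16, 5.09 and 4.21 at 24 h. Replicate 4 at 24 h and replicate 3 at 12 h reached the undifferentiated range, and the others lay below it. The fall was 1.0 ± 0.22 at 24 h (adjusted p = 0.00367), to 49.9% of the undifferentiated level, and the 12 h difference of -0.73 ± 0.22 did not pass (adjusted p = 0.0540). Mrpl2, a counterpart of L2, the protein that lies across the subunit interface in bacteria, fell by 0.41 ± 0.12 at 24 h (adjusted p = 0.0152). Mrpl4 (-0.31 ± 0.16), Mrpl27 (-0.01 ± 0.18) and Mrpl36 (-0.04 ± 0.16), counterparts of L4, L27 and L36, did not pass at 24 h. The group thus held genes with large falls beside genes near 0.

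Of the 19 large subunit genes found only in mitochondria, 8 were lower at 24 h (median -0.44) and 2 at 12 h (median -0.34). Of all genes tested, 19.4% were lower at 24 h and 4.56% at 12 h. Mrpl38, a protein of the central protuberance, read 3.48, 3.21, 2.98, 3.36 and 3.31 in undifferentiated arrays, 2.33, 2.82, 3.44, 3.42 and 2.39 at 12 h, and 2.47, 2.40, 2.50, 2.24 and 1.50 at 24 h. At 24 h all arrays lay below the undifferentiated ones, and replicate 5 was lowest by far. At 12 h the replicates 3 and 4 read as high as undifferentiated arrays, and the other 3 were lower. Mrpl38 fell by 1.05 ± 0.24 at 24 h (adjusted p = 0.00437) and differed by -0.39 ± 0.24 at 12 h (adjusted p = 0.320).

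Mrpl45, which lies at the exit of the peptide tunnel, read 5.10, 5.02, 4.42, 4.92 and 4.38 in undifferentiated arrays, 4.34, 4.35, 4.27, 4.27 and 3.70 at 12 h, and 4.26, 3.88, 3.95, 3.48 and 3.59 at 24 h. Neither differentiated group overlapped with the undifferentiated arrays. The fall was 0.93 ± 0.19 at 24 h (adjusted p = 0.00214), and -0.58 ± 0.19 at 12 h did not pass (adjusted p = 0.0667). Some genes of this group, Mrpl41, Mrpl44, Mrpl48 and Mrpl52, were at or above 0 at 24 h and are given below.

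Small subunit genes with a counterpart in bacteria numbered 14, of which 3 were lower at 24 h (median -0.38) and 0 at 12 h (median -0.34; all 14 lay below 0 at both times). The 24 h share of 21.4% is near the 19.4% of all genes; with the suffix as a block it was 7 of 14 (50%), beside 23.7% of all genes. Mrps2, a human disease gene, read 4.75, 4.74, 4.77, 4.91 and 4.90 in undifferentiated arrays, 3.81, 4.39, 4.68, 4.60 and 4.12 at 12 h, and 4.44, 4.09, 4.21, 4.30 and 4.22 at 24 h. The groups did not overlap at either time. It fell by 0.56 ± 0.15 at 24 h (adjusted p = 0.00934) and differed by -0.50 ± 0.15 at 12 h (adjusted p = 0.0511). Mrps5, the counterpart of S5, read 3.63, 3.52, 3.62, 3.52 and 3.66 in undifferentiated arrays, 3.01, 3.17, 3.47, 3.24 and 2.84 at 12 h, and 3.19, 2.96, 2.81, 2.82 and 2.64 at 24 h. All 24 h arrays lay below the undifferentiated ones, with a fall of 0.71 ± 0.14 (adjusted p = 0.00162); the 12 h difference was -0.44 ± 0.14 (adjusted p = 0.0561).

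The other members of this group that the naming rule covers did not pass at either time. Mrps12, the counterpart of the decoding centre protein S12, differed by -0.03 ± 0.15 at 24 h. Mrps14 differed by -0.22 ± 0.18 and Mrps16 by -0.48 ± 0.19, both known as human disease genes. Mrps9 stood at -0.40 ± 0.15. Mrps7, also a human disease gene, read 4.72, 4.62, 4.56, 4.76 and 4.73 in undifferentiated arrays, 4.06, 3.74, 4.30, 4.42 and 4.63 at 12 h, and 4.45, 4.37, 4.21, 4.91 and 4.90 at 24 h. Its 12 h arrays were mostly low and its 24 h arrays 4 and 5 were above the undifferentiated range, so that the difference was -0.45 ± 0.17 at 12 h (adjusted p = 0.106) and -0.11 ± 0.17 at 24 h (adjusted p = 0.650).

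Of the 8 small subunit genes found only in mitochondria, 5 were lower at 24 h (median -0.60) and 2 at 12 h (median -0.39). The shares were 62.5% and 25%, beside 19.4% and 4.56% of all genes. Mrps22 and Mrps35 are described above. Mrps34, a human disease gene, read 5.10, 4.77, 4.87, 5.46 and 4.88 at 24 h, against 4.94, 4.98, 5.06, 5.10 and 5.30 in undifferentiated arrays. These ranges overlapped throughout, and the difference was -0.06 ± 0.16 (adjusted p = 0.789). A second Mrps34 probe set, which the annotation shares with Nme3, averaged 3.16 at 24 h against 2.38 in undifferentiated cells and was not used.

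The 3 members of the Mrps18 family, which descend from the same bacterial protein S18, were read separately. Mrps18b read 4.42, 4.33, 4.30, 4.65 and 4.53 in undifferentiated arrays, 3.09, 3.34, 4.46, 4.28 and 2.96 at 12 h, and 3.42, 3.12, 3.27, 3.26 and 2.69 at 24 h. The 24 h arrays all lay far below the undifferentiated ones, and at 12 h the replicates 3 and 4 were close to the undifferentiated level while the others were low. It fell by 1.29 ± 0.26 at 24 h (adjusted p = 0.00185), to 40.9% of the undifferentiated level, the largest fall of the 74 genes as deposited; the 12 h value was -0.82 ± 0.26 (adjusted p = 0.0593). Mrps18a, a large subunit protein, fell by 0.45 ± 0.15 at 24 h (adjusted p = 0.0337; it passed in 8 of the 15 fits without 1 array), and Mrps18c differed by -0.36 ± 0.14 (adjusted p = 0.0618). The difference between the members of the family was not tested. Mrps36, now known as a subunit of the 2-oxoglutarate dehydrogenase complex and not of the ribosome, differed by -0.26 ± 0.17 (adjusted p = 0.253).

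As deposited, the 6 genes at or above 0 at 24 h were Mrpl24, Mrpl41, Mrpl44, Mrpl48, Mrpl52 and Mrps33; all but Mrpl41 and Mrpl44 are named after their values were seen. Mrpl24, whose bacterial counterpart starts the assembly of the large subunit, read 5.63, 5.27, 5.10, 5.17 and 5.70 in undifferentiated arrays, 5.60, 5.44, 5.38, 5.31 and 5.58 at 12 h, and 5.53, 5.20, 5.30, 5.89 and 5.66 at 24 h. The groups overlapped and the 24 h difference was 0.14 ± 0.15 (adjusted p = 0.497), the highest of the 74. Mrpl41 read 5.85, 5.17, 5.01, 4.72 and 5.23 in undifferentiated arrays, 4.82, 5.23, 5.03, 5.15 and 5.14 at 12 h, and 5.41, 4.91, 5.06, 5.89 and 5.40 at 24 h. Its difference was 0.14 ± 0.20 at 24 h (adjusted p = 0.637) and -0.12 ± 0.20 at 12 h. Mrpl44, which has a domain related to RNase III and is a human disease gene, differed by 0.03 ± 0.13 at 24 h (adjusted p = 0.866). Mrpl52 had probe sets of opposite sign at both times, and Mrpl44 at 24 h. With standard errors from 0.12 to 0.20, these values do not show that the genes stayed at their undifferentiated level.

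Between 24 h and 12 h, 0 members passed in limma, beside 0.354% of all genes lower and 0.0632% higher. After quantile normalisation it was again 0, beside 0.455% lower and 0.177% higher, and with the suffix as a block 1, Mrpl37, beside 2.05% lower and 0.506% higher. Below 0 lay 51 members and 59.9% of all genes. At an unadjusted p under 0.05, 6 members were lower and 0 higher, and 10.4% of all genes were lower. The median difference was -0.10 over the members and -0.06 over all genes, and 0.04 over the members after centring each array. Within suffixes A, B and C it was 0.015, -0.34 and 0.14, and without 12 h replicates 3 and 4 it was 0.03. Mrpl37, a large subunit protein of mitochondria only that is named here after its values were seen, read 3.60, 3.12, 3.25, 3.50 and 3.49 in undifferentiated arrays, 2.85, 3.28, 3.54, 3.43 and 2.90 at 12 h, and 2.74, 2.45, 2.63, 2.40 and 2.29 at 24 h. It was the 1 member whose 24 h and 12 h arrays did not overlap (2.21% of all genes were lower in this way). It differed by -0.70 ± 0.16 between 24 h and 12 h (adjusted p = 0.0593, and 0.0334 with the suffix as a block). Against undifferentiated cells Mrpl37 fell by 0.89 ± 0.16 at 24 h (adjusted p = 0.000975) and differed by -0.19 ± 0.16 at 12 h (adjusted p = 0.466).

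**Figure D3:**
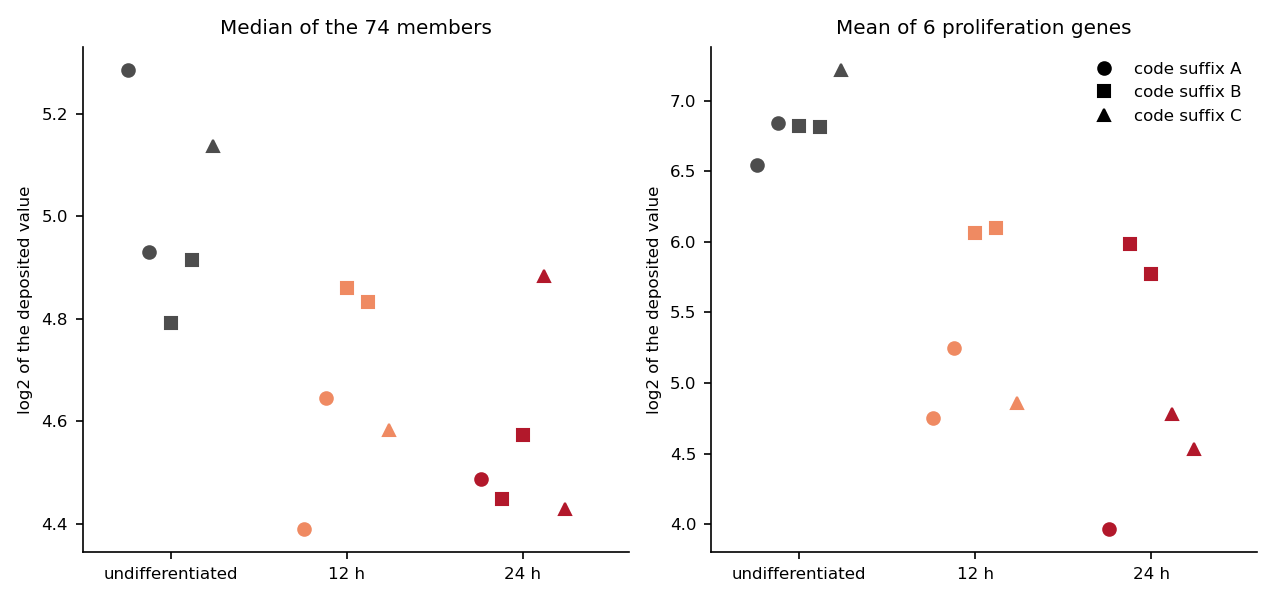
Median of the 74 members (left) and mean of 6 proliferation genes (right) in each array, as log2 of the deposited value (vertical axes), by group (horizontal axes); symbols show the code suffix. Member medians were 4.43 to 4.88 at 24 h and 4.79 to 5.29 in undifferentiated cells, and 12 h replicates 3 and 4 stand above the other 12 h arrays in both panels.

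Array by array, the median over the 74 genes was 5.29, 4.93, 4.79, 4.91 and 5.14 in undifferentiated cells, 4.39, 4.64, 4.86, 4.83 and 4.58 at 12 h, and 4.49, 4.45, 4.57, 4.88 and 4.43 at 24 h. At 24 h replicate 4 alone reached the undifferentiated range. Markers of dividing cells were also lower. Of Mki67, Top2a, Pcna, Mcm3, Mcm7 and Cdk1, 6 of 6 were lower at 24 h (median -1.89) and 5 of 6 at 12 h (median -1.39). Their mean level per array was 6.55 to 7.22 in undifferentiated cells, 4.75 to 6.10 at 12 h and 3.96 to 5.98 at 24 h. The order of the arrays within a group is given without a test, and it does not bear on the difference between groups. At 12 h replicates 3 and 4 were highest in both the markers and the members. At 24 h replicate 2 had the highest mean of the 6 markers (5.98) and a member median of 4.45. Undifferentiated replicate 1 had the lowest marker mean (6.55) and the highest member median (5.29). The β-actin 3′/5′ signal ratio, a measure of RNA integrity, averaged 1.95 ± 0.24 in undifferentiated cells, 2.36 ± 0.15 at 12 h and 2.78 ± 0.37 at 24 h (SD, n = 5 each). With that ratio as a covariate 1 member passed at 12 h (Mrps30) and 0 at 24 h, while the medians were -0.31 and -0.40. Of all genes, 8 were then lower at 24 h. The ratio was 1.63 to 2.22 in undifferentiated arrays and 2.23 to 3.21 at 24 h, without overlap. RNA integrity and differentiation therefore cannot be told apart by this fit. The part of dividing cells in the members' values was not tested.

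Markers of cell types are given for the same arrays. All 8 markers of neural stem and progenitor cells were measured; at 24 h Nes, Hes1 and Egfr were lower, and Sox2, Msi1 and Prom1 higher. At 24 h 3 of 5 astrocyte markers, 4 of 4 measured oligodendrocyte markers and 2 of 3 measured neuron markers were higher, and 0 of each were lower. The 2 measured ependyma markers, Foxj1 and Rsph1, were higher too. Of 5 markers of pericytes and fibroblasts only Pdgfrb passed the filter on low values, and it was higher (1.97). Pdgfrb averaged -0.24 in undifferentiated cells, 0.43 at 12 h and 1.72 at 24 h, and Rsph1 0.43, 0.46 and 0.78. With a filter level of 0.51, both passed only through their 24 h arrays. The filter thus favoured a higher call for them, from a reference level near the floor. Of the microglia markers 0 of 6 and of the endothelium markers 0 of 5 passed the filter on low values. The part of a change in cell types in the members' values was not tested.

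Other genes that serve the mitochondrial ribosome were read in the same fit. Of 4 ribosome proteins with other symbols, 2 were lower at 24 h, Ptcd3 by 0.83 ± 0.18 (adjusted p = 0.00345) and Gadd45gip1 by 0.60 ± 0.22 (adjusted p = 0.0467). Gadd45gip1 passed in only 5 of the 15 fits without 1 array. Dap3, a small subunit protein, stood at -0.13 ± 0.12 (adjusted p = 0.400). Of 16 assembly factors, 3 were lower at 24 h and 0 higher (median -0.18, with 18.8% lower against 19.4% of all genes). After quantile normalisation 3 were lower and 1 higher, with a median of 0.003 and 8 of 16 below 0. They were Fastkd2, Mrm3 and Noa1, with falls as deposited of 0.81 ± 0.17, 0.64 ± 0.15 and 0.51 ± 0.17; Mrm3 methylates the large rRNA and Noa1, a GTPase, passed in 10 of the 15 fits without 1 array. At 12 h 0 of either list passed.

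Of 9 translation factors, 4 were lower at 24 h (median -0.44) and 1 at 12 h. Gfm1, the mitochondrial elongation factor G1, averaged 4.56 in undifferentiated cells, 4.07 at 12 h and 3.54 at 24 h. It fell by 1.02 ± 0.12 at 24 h (adjusted p = 7.88e-05) and by 0.49 ± 0.12 at 12 h (adjusted p = 0.0224). Tufm, the elongation factor Tu, fell by 0.61 ± 0.13 (adjusted p = 0.00342) and Lrpprc, which stabilises mitochondrial mRNA, by 0.81 ± 0.18 (adjusted p = 0.00347). Mrrf, the recycling factor, was also lower at 24 h. Of 8 aminoacyl-tRNA synthetases of mitochondria, 2 were lower at 24 h (median -0.29), Iars2 by 0.61 ± 0.17 and Ears2 by 0.54 ± 0.19. Ears2 passed in 9 of the 15 fits without 1 array. Within suffix A alone, which held 1 array of 24 h, Iars2 stood at 0.14.

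Of 9 genes for transcription and replication of mitochondrial DNA, 4 were lower at 24 h (median -0.41), and 2 after quantile normalisation (median -0.23; 22.2% against 16.5% of all genes). Tfam, which packages that DNA and starts its transcription, fell by 0.55 ± 0.14 (adjusted p = 0.00796), Tefm by 0.59 ± 0.18 and Mgme1 by 0.41 ± 0.14; Polg was the other, and Mgme1 passed in 10 of the 15 fits without 1 array. Of 9 nuclear regulators of mitochondrial genes, 4 were lower at 24 h (median -0.28) and 0 at 12 h, and after quantile normalisation 2 were lower at 24 h (median -0.24). Ppargc1a, the coactivator PGC-1α, fell by 0.87 ± 0.17 (adjusted p = 0.00201), and the related Pprc1 by 0.97 ± 0.26 (adjusted p = 0.00921). Esrra, a nuclear receptor that works with them, fell by 0.59 ± 0.18 (adjusted p = 0.0212); Gabpb1 was also lower. Nrf1 (-0.16 ± 0.15), Gabpa (0.12 ± 0.14) and Yy1 (-0.28 ± 0.16), whose motifs were searched above, did not pass at 24 h. All these lists lie beside 19.4% of all genes lower at 24 h.

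**Figure D4:**
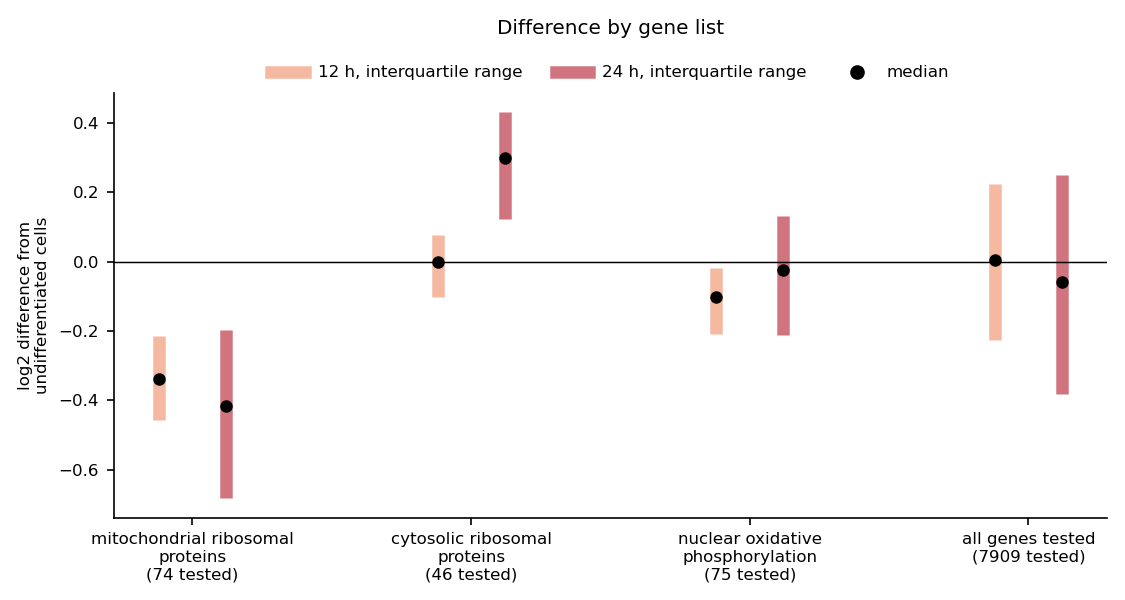
Median (point) and interquartile range over genes (bar) of the log2 difference from undifferentiated cells (vertical axis) for 4 sets of genes (horizontal axis), at 12 h and 24 h. At 24 h the medians as deposited, with those after quantile normalisation in parentheses, are -0.42 for the mitochondrial ribosomal proteins (-0.31), 0.30 for the cytosolic ones (-0.05), -0.02 for oxidative phosphorylation (-0.19) and -0.06 for all genes tested (0.05).

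The ribosomal proteins of the cytosol read differently on the same arrays. Of 46 cytosolic ribosomal protein genes tested, 1 was lower and 0 were higher at 24 h, with a median of 0.30 and 7 of 46 below 0. The share lower was 2.17%, against 19.4% of all genes. At 12 h 0 passed and the median was 0.0001. After quantile normalisation the 24 h median was -0.05, with 1 gene higher and 4 lower, so its direction depends on the scaling. With the suffix as a block, 7 were higher and 5 lower at 24 h, beside 18.1% and 23.7% of all genes, and the median was 0.16. Of 75 nuclear genes of oxidative phosphorylation, 8 were lower and 0 higher at 24 h (median -0.02), and 1 was lower at 12 h (median -0.10). These shares of 10.7% and 1.33% lower lie below the 19.4% and 4.56% of all genes. At 24 h, 20 were lower and 1 higher after quantile normalisation (26.7% lower against 16.5% of all genes, median -0.19). With the suffix as a block 13 were lower and 5 higher, beside 23.7% and 18.1% of all genes. The difference between the lists was not tested. Across the 74 members the 24 h difference and the mean level had a Spearman correlation of 0.31, against 0.12 over all 7909 genes. These are correlations across genes of the same arrays, given as a description. Here levels of different genes are ranked against each other, so how brightly each probe set binds enters the values.

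Probe sets of the same gene were compared where there were several. 33 of the 74 members had more than 1 probe set, and for 26 at least 2 were above the filter level. Of the 34 members called at 24 h 12 had such a second probe set, and 0 of them had probe sets of opposite sign; at 12 h this held for 1 called member. Among all 26, signs were opposite for Mrpl28, Mrpl51, Mrpl52 and Mrpl57 at 12 h and for Mrpl44 and Mrpl52 at 24 h. Mrpl30 and Mrpl53 were read only by probe sets with a second gene symbol and are not among the 74; the probe set of Mrpl53 and Ccdc142 averaged 5.13 in undifferentiated cells, 4.84 at 12 h and 4.70 at 24 h.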

How the data were processed

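Total RNA of 15 samples in 3 groups of 5 was read on an Affymetrix mouse array. The authors made the deposited log10 values with MAS5, per the submitters' processing notes; version and settings: not given in the sources used here. Spike-in probe sets settled the base: per log10 step in amount, their deposited value changed by 1.02 ± 0.0541 (SD, 15 arrays). Multiplying by 3.32 gave log2. The number of arrays limits the precision. Groups came from the sample titles.

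Each gene was read by its probe set with 1 symbol and the highest mean. The test covered genes whose mean exceeded log2 0.51, the 40th percentile of probe set means. All 15 arrays entered 1 limma fit (limma 3.58.1 in R 4.3.3), with Benjamini-Hochberg adjustment over 7909 genes and a threshold of 0.05. The script was tested on simulated data. Quantile normalisation, centring, blocks by code suffix, the actin ratio as a covariate, other groupings and left-out arrays were alternatives. Named members were the 8 called ones with the largest change in each direction and comparison, and a fixed list by role. Other members are marked, or appear only in a range or a list. Named pathway genes were the called ones among the 3 smallest p-values of each list. Dap3, Mrrf, Polg, Gabpb1, Nrf1, Gabpa and Yy1 were named outside this rule. The members and lists were chosen with earlier results of these data known. Promoter windows came from RefSeq (GRCm38.p6).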

Additional observations from a re-analysis of the deposited data

Results flagged for a closer look

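Of 93 groups of 5 values examined, 6 held an array far from the other 4 by Dixon's ratio, and chance flags about 1 in 20 groups. Mrpl38 read 1.50 in 24 h replicate 5, where the other 24 h arrays read 2.24 to 2.50. Replicate 4 of the 24 h group was high for Mrpl46 (4.16, others 3.79 to 3.86), Mrps18c (5.71, others 5.02 to 5.21) and Mrps36 (4.61, others 4.04 to 4.15). Mrpl45 read 3.70 in 12 h replicate 5, against 4.27 to 4.35 in the rest of that group. Mrpl44 read 4.49 in undifferentiated replicate 1, against 4.07 to 4.16 in the rest.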

How the results depend on the processing

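The replicate numbers follow accession order and pair no samples; arrays were matched by runs of consecutive title codes instead, which the labels do not call pairs. Counts of lower members are given with lower genes in all in parentheses. At 12 h, 7 members (361) as deposited became 2 (236) with the 2 groups fitted alone, 22 (844) with the suffix as a block, 17 (824) with that block after quantile normalisation and 17 (691) with title code runs as a block. They became 16 (569) with 12 h replicates 3 and 4 averaged, 27 (1168) without them, 1 (35) without suffix C, 1 (50) with actin ratio as covariate, and 0 (0) by the file code. At 24 h, 34 (1533) became 19 (1110) after centring, 21 (612) without suffix C, 0 (8) with the actin ratio, 0 (0) by the file code and 41 (1866) with title code runs as a block. Between 24 h and 12 h, 1 member passed with the suffix as a block, before and after quantile normalisation. Leaving out 1 array gave 2 to 16 members at 12 h, 28 (without undifferentiated replicate 5) to 42 (without 24 h replicate 4) at 24 h and 0 to 1 between 24 h and 12 h, with medians of -0.39 to -0.25, -0.48 to -0.37 and -0.17 to -0.05. Member medians were 0.0021 at 12 h and -0.0745 at 24 h by the file code. They were -0.0195 within suffix B and -0.57 within suffix C (1 array per group) at 12 h, and -0.34 and 0.14 between 24 h and 12 h. By the file code the sign turned for Mrpl12 at 12 h (0.0255) and for Mrpl18 (0.0091), Mrps2 (0.0377) and Pprc1 (0.0403) at 24 h, and within suffix A for Iars2 at 24 h (0.14). The causes were not tested. Of 3026 values of named genes under alternatives, 80 had the other sign, and for 75 of these neither fit had called the gene. Some alternatives cannot change a difference, such as another filter, fitting the 2 groups alone or leaving out an array of the third group. They are among the 3026, so the share of sign changes is low in part by design.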
